A study of Homo sapiens with 8 samples.

Results

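The 6 genes described here are FCGR2A, CCNL1, WDR74, CTC1, MTRNR2L12 and C12orf57, out of all 9339 genes with a value. The first 4 are among the 5 genes with the largest mean signal in the series (FTL, the ferritin light chain gene, is the remaining gene of the 5 and is not a member). C12orf57 was added because the gene of the U7 small nuclear RNA lies inside it, and MTRNR2L12 because it resembles the mitochondrial 16S ribosomal RNA. The members were therefore chosen with measured values of the same comparison, and everything given for them from that comparison is a description.

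Ribosome footprints and input RNA came from THP-1, a cell line grown from a human acute monocytic leukaemia. There were 4 groups of 2 libraries each: A5-KD footprints, control footprints, A5-KD input and control input, where A5-KD is the knockdown of ALKBH5, an enzyme that removes the methyl group of N6-methyladenosine from RNA. The sources used here do not say how the knockdown was made, and the control input libraries are known as control from their titles alone. The labels give total RNA as the molecule of the footprint libraries and polyA RNA as that of the input libraries, and most tRNAs and snRNAs carry no poly(A) tail. The labels leave unsaid whether replicates are separate cultures, and the errors may therefore be technical. The deposited table gives 1 value per gene for the whole comparison and 0 columns per library, so no value per sample can be shown and the depth of the libraries is unknown here.

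A footprint library is made from short RNA fragments that survive a nuclease. Ribosomes protect mRNA, but tRNAs, small nuclear RNAs (snRNAs, the RNA parts of the particles that process pre-mRNA) and ribosomal RNA are folded, abundant and often bound by protein, and their fragments are a well-known companion of footprints. When a gene for such an RNA lies inside the span of a protein-coding gene, a read from the small RNA can be counted for the gene around it. Whether that happened for the genes below was not tested, because no reads or positions of reads were used.

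The annotation places a small structural RNA gene inside 4 of the 6 spans (GRCh38.p14, whole gene spans, either strand). FCGR2A, which myeloid cells use to bind the constant part of IgG in immune complexes, spans 161505457 to 161524048 on chromosome 1. It holds the glycine tRNA gene TRG-GCC2-1 (161523847 to 161523917), which ends 131 bases before the 3′ end of the span, and the tRNA pseudogene TRD-GTC10-1 (161523145 to 161523216). WDR74, a nucleolar protein of large ribosomal subunit maturation, spans 62832905 to 62841809 on chromosome 11. The snRNA gene RNU2-2, of the U2 type that works in the spliceosome, takes up the outermost 191 bases at the 5′ end of that span (62841619 to 62841809). The WDR74 transcript starts in the promoter windows used below, 62839590 and 62839659 on the minus strand, lie further inside the span. RNU2-2 is thus upstream of both. CTC1, a subunit of the CST complex that binds telomeric single-stranded DNA, spans 8224815 to 8248056 on chromosome 17. Within it stand 3 tRNA genes: TRT-AGT1-2 for threonine (8226235 to 8226308), TRS-AGA2-6 for serine (8226610 to 8226691) and TRI-AAT4-1 for isoleucine (8226991 to 8227064), which begin between 1420 and 2176 bases from the low-coordinate end. C12orf57, a small conserved protein needed for brain development, spans 6943433 to 6946003 on chromosome 12 and holds RNU7-1.

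CCNL1, a cyclin that acts in transcription and splicing, spans 157143121 to 157160147 on chromosome 3 and holds 0 of the 1893 small structural RNA genes searched, also with 3000 bases added on either side. The label of the group is thus not borne out by this annotation for CCNL1. MTRNR2L12 is annotated as a pseudogene of 1038 bases on chromosome 3 (96617186 to 96618223). It too holds none of them. Its family is named after humanin, a short peptide read from the mitochondrial 16S ribosomal RNA gene, and its place in the group rests on that resemblance, which could not be recomputed here. Another gene shares bases with CTC1 (PFAS, 449 bases) and with WDR74 (the noncoding STX5-DT, 1139 bases). PFAS had a mean signal of 12.2 in the authors' deposited table, and no source used here says whether the counting used strand.

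**Figure D1:**
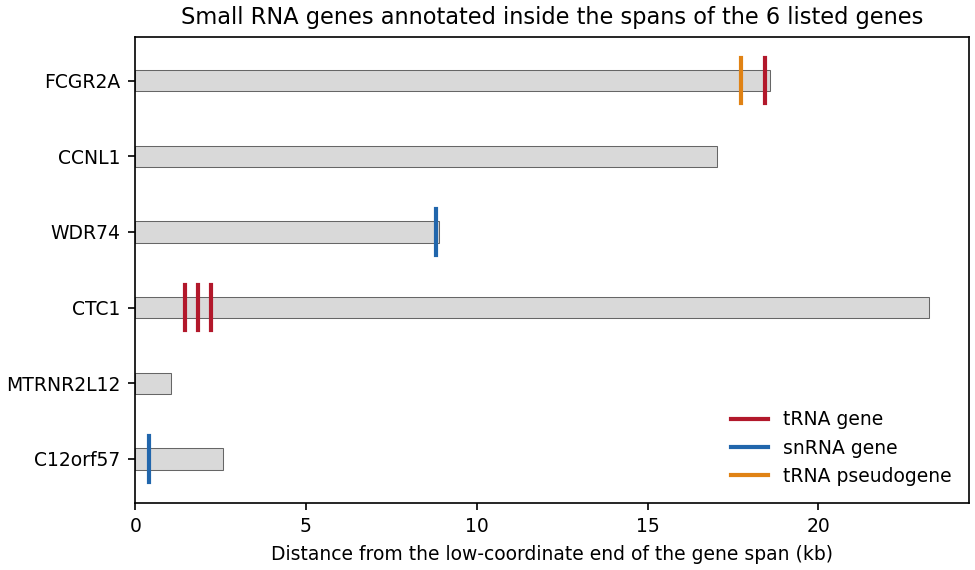
Spans of the 6 genes drawn to scale as grey bars, with the distance from the low-coordinate end in kilobases on the horizontal axis and coloured ticks for annotated tRNA genes, snRNA genes and a tRNA pseudogene. FCGR2A, WDR74, CTC1 and C12orf57 hold such genes near 1 end of the span, while CCNL1 and MTRNR2L12 hold none.

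For C12orf57 the small RNA can be shown as sequence. The first line below is the RefSeq promoter window of C12orf57 (GRCh38.p14, chr12:6943772-6944071, plus strand, 250 bases before to 50 after the transcript start at 6944022), with RNU7-1 in capitals, and the second is RNU7-1 alone (chr12:6943816-6943878), with its Sm site in capitals, the place where the ring of Sm and LSM proteins assembles.
C12orf57 window: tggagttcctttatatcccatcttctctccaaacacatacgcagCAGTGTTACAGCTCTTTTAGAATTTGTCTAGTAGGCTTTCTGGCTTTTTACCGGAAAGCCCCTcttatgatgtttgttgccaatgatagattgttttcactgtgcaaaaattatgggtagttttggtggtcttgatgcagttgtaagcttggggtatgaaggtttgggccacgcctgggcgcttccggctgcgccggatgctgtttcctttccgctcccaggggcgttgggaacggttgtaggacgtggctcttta
RNU7-1: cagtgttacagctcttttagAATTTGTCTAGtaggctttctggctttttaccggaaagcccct
The U7 gene is 63 bases long, fills bases 45 to 107 of the window and ends 144 bases before that transcript start, so it lies inside the widest span of C12orf57 but upstream of this start. U7 RNA pairs with replication-dependent histone pre-mRNAs and directs the cut that forms their 3′ ends. The letters AATTTGTCTAG stand at bases 21 to 31 of U7, and 3 of 35116 promoter windows (0.00854%) hold them on either strand. These letters were taken from this U7 sequence, so the match here was fixed in advance and this window is among the 3. The letters AATTTNTNG, which take in the Sm site of spliceosomal snRNAs, are in 2.57% of windows and not in this one. RNAfold placed 3 hairpins in U7, with a minimum free energy of -17.2 kcal/mol for the whole RNA, as a prediction for the naked molecule. The hairpin at the 3′ end has 10 base pairs and a loop of 7 bases. The middle hairpin pairs bases at both ends of the Sm site and holds the bases between them in its loop. The predicted fold thus leaves that site single-stranded only in part.

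Windows were also present for FCGR2A, CCNL1 and WDR74 (2 windows), and RNA polymerase III letters were searched in all 5 member windows, on both strands. The B box of tRNA genes, GTTCNANNC, is in 7.48% of all windows and in 0 of the 5. Their A box is in 78.4% of all windows, and among the members CCNL1 was the 1 gene without it. TATAA is in 20.4% of all windows and in those of FCGR2A and C12orf57. These windows hold none of the tRNA genes named above, so they show nothing of those genes' own promoters.

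Together the 6 genes held 29.3% of the summed mean signal of all 9339 genes, and the 4 chosen by signal 28.9%. Mean signal is the authors' normalized value averaged over all 8 libraries, footprints and input together, and it is not divided by length, so the shares below are shares of what was counted and not levels of mRNA. In the authors' deposited table FCGR2A had a mean signal of 112772, or 15.8% of the sum. CCNL1 followed with 55432 (7.77%), WDR74 was at rank 3 with 27446 (3.85%), and CTC1 at rank 5 with 10317 (1.45%), all from the authors' deposited table. FTL stood between WDR74 and CTC1 with 13019, and ACTB, just outside the 5, had 6546 in the authors' deposited table.

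MTRNR2L12 was at rank 12 with 2876 and C12orf57 at rank 150 with 558.8, a mean signal like that of RPL13 (552.9) beside it, in the authors' deposited table. The median over all genes was 11.9. C12orf57 is thus not among the genes of extreme signal, and its place in the group rests on the U7 gene.

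**Figure D2:**
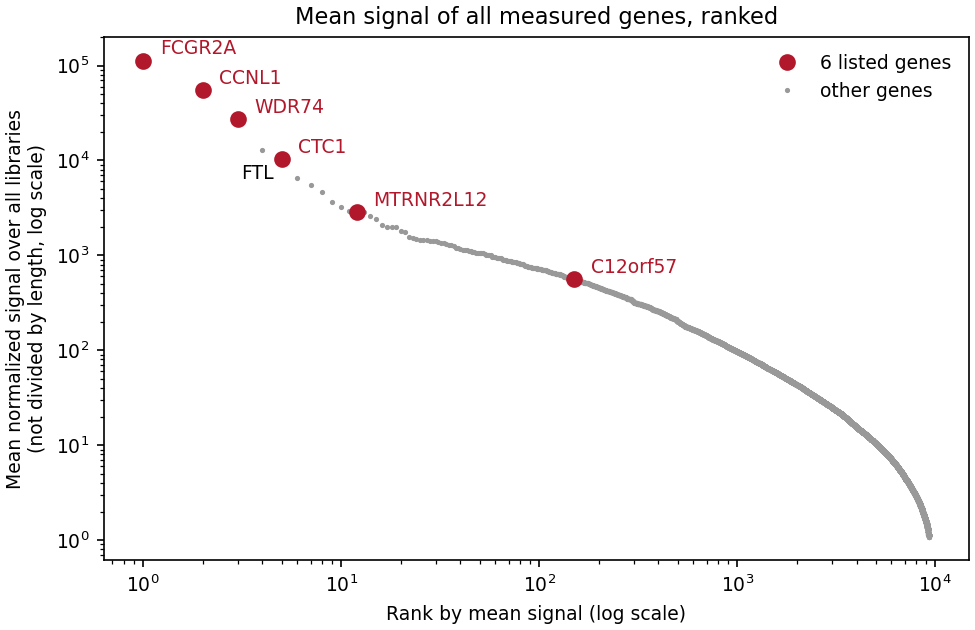
Mean normalized signal of each of 9339 genes against its rank, both on log scales, with the 6 genes in red and other genes as grey points. FCGR2A, CCNL1, WDR74 and CTC1 lie between 10317 and 112772, while MTRNR2L12 (2876) and C12orf57 (558.8) lie within the run of the other genes.

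The log2 fold change compares translational efficiency, that is footprints relative to input, between knockdown and control. The table does not say which condition is the denominator, so each sign is the deposited sign. Of the 6 genes 5 had a negative and 1 a positive value, where 68.4% of the 648 genes with an adjusted p and 51.9% of all genes were negative. Of the 6, 3 had a Benjamini-Hochberg adjusted p under 0.05 in the authors' deposited table, which riborex made with DESeq2. Over the 648 genes with an adjusted p, 1.54% were called (10 genes, all negative). The same comparison chose the members, so nothing is read from this difference. The median log2 fold change was -0.45 over the 6 genes, -0.12 over the 648 and -0.02 over all genes.

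C12orf57 had the largest change of the 6, with a log2 fold change of -1.17 ± 0.26 (SE, 2 libraries per group; DESeq2 adjusted p = 9.2e-04) in the authors' deposited table. This is a ratio of 0.443, with a 95% interval from 0.310 to 0.634 computed from the deposited error. None of the 200 genes nearest in rank of mean signal had a more negative value. The 2 genes above it in signal, RPS16 and ATP5MF, had -0.41 ± 0.20 and -0.28 ± 0.24, and the 2 below, RPL13 and PDIA3, had -0.22 ± 0.21 and -0.16 ± 0.20 in the authors' deposited table. All 4 are on the negative side like C12orf57, and 0 of them was called.

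FCGR2A had -0.80 ± 0.17 (SE; DESeq2 adjusted p = 4.0e-04) in the authors' deposited table, a ratio of 0.576 with a 95% interval from 0.459 to 0.723. It had the third smallest p of all genes. Among the 100 genes next in rank of signal, 2 had a more negative value. With fold changes centred on the median of those 100 genes it was -0.63 and kept an adjusted p under 0.05 (0.017). All of them lie below FCGR2A in signal, from CCNL1 with 55432 down past RPL23 with 956.9 at rank 59. They are thus near to it in rank but not alike in signal.

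MTRNR2L12 had -0.43 ± 0.10 (SE; DESeq2 adjusted p = 9.4e-04) in the authors' deposited table, a ratio of 0.740 with a 95% interval from 0.647 to 0.846. Its call depended on the centre: with the median of the 648 genes set to 0 it was -0.32 with an adjusted p of 0.080, and with the median of genes of similar signal set to 0 it was -0.27 with an adjusted p of 0.22. Its neighbours in signal spread widely, from -0.91 ± 0.16 for TMSB4X, which encodes an actin monomer-binding peptide, to -0.02 ± 0.10 for SRGN, the proteoglycan serglycin, in the authors' deposited table. TMSB4X was itself called (DESeq2 adjusted p = 3.6e-06), with a larger change than MTRNR2L12. In the authors' deposited table LYZ, which encodes lysozyme, had -0.41 ± 0.13 (adjusted p = 0.084) and MYL6, a myosin light chain, -0.18 ± 0.10 (adjusted p = 0.67).

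The remaining 3 genes were not called. In the authors' deposited table CCNL1 had -0.46 ± 0.36 (SE; adjusted p = 0.96), with a 95% interval from -1.17 to 0.24. Its estimate was close to that of MTRNR2L12, but its error was wider. WDR74 had 0.02 ± 0.18 and an adjusted p of 0.999, as the authors' deposited table gives them. Its 95% interval runs from -0.33 to 0.38, or ratios from 0.793 to 1.30. CTC1 had -0.31 ± 1.18 in the authors' deposited table, with an interval from -2.62 to 2.01, so a change of 4.97-fold either way would be needed to reach an unadjusted p of 0.05. For CTC1 the table therefore gives no usable direction, although its signal is at rank 5. FTL, between WDR74 and CTC1 in signal, had -0.00 ± 0.12 in the authors' deposited table.

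**Figure D3:**
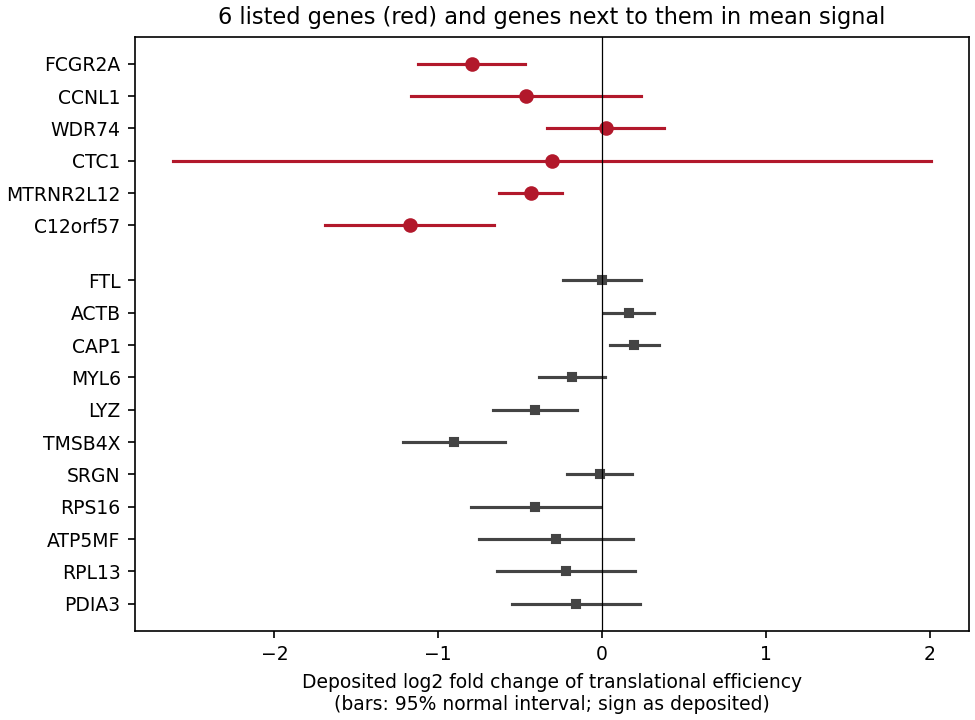
Deposited log2 fold change of translational efficiency (horizontal axis, sign as deposited) with 95% normal intervals as bars, for the 6 genes in red above and genes next to them in mean signal in dark grey below. The intervals of FCGR2A, MTRNR2L12 and C12orf57 lie wholly below 0, and that of CTC1 runs from -2.62 to 2.01.

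The standard errors also varied among the 6 genes. Counting noise shrinks with the square root of the signal, so the standard error times the square root of the mean signal is near constant for genes whose error comes mostly from counting. Over all 9339 genes the median product was 4.58 and its quartiles 4.44 and 4.89. It was 5.28 for MTRNR2L12 and 6.23 for C12orf57, against 6.19 for ACTB. It was 120 for CTC1, 84.3 for CCNL1, 56.1 for FCGR2A and 30.1 for WDR74. CTC1, CCNL1 and FCGR2A had the 3 largest products in the table and WDR74 was at rank 7. Among the 51 other genes whose mean signal reached 1000 the median was 5.37 and the highest 34.1, and FTL had 13.9. The mean signal that chose these 4 genes is part of the product, so where the standard error levels off, the largest signals give large products by construction and nothing is read from their size.

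Set against the genes nearest in rank of signal, up to 100 on each side, the standard error of CTC1 was 7.22 times the median and that of CCNL1 2.20 times. It was 1.23 times the median for C12orf57, 1.11 for WDR74, 1.02 for FCGR2A and 0.590 for MTRNR2L12. FCGR2A has no gene above it in signal, and nearly all neighbours of CCNL1, WDR74 and CTC1 lie below them. Most of the 111 neighbours of MTRNR2L12, at rank 12, lie below it too. Its error of 0.099 was close to the 0.103 of MYL6 and of SRGN next to it, and below LYZ (0.132) and TMSB4X (0.159). Of the 104 neighbours of CTC1, 1 had a wider error. In these windows the errors of FCGR2A and WDR74 were thus close to the median of their neighbours, and those of CTC1 and CCNL1 were wider. The ratios rose in narrower windows, for FCGR2A to 1.35 with 25 genes on each side and 1.49 with 10. For WDR74 they were 1.43 and 1.62, so closeness to the median depends on the window. Values per library, which would show whether the error comes from footprints or input, from knockdown or control, were not analysed here.

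**Figure D4:**
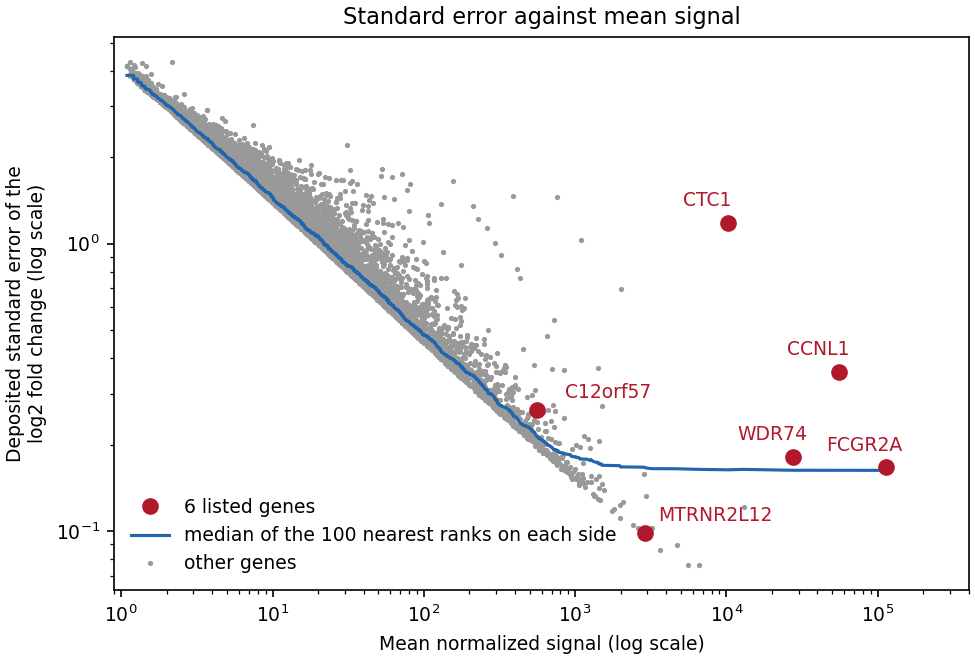
Deposited standard error of the log2 fold change against mean normalized signal for all 9339 genes, both axes on log scales, with the 6 genes in red and the median of the 100 nearest ranks on each side as a blue line. MTRNR2L12 lies along the lower edge of the cloud, and C12orf57 (0.26) a little above the blue line. CTC1 (1.18) and CCNL1 (0.36) lie far above that line.

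Other genes with small structural RNA genes inside were compared as a description. Such a gene lies in the span of 386 of 9174 measured genes with a nuclear position (4.21%), of 64 of the 648 genes with an adjusted p (9.88%), of 18 of the 100 genes of highest signal (18.0%), and of 4 of the 6 genes described here. For C12orf57 that overlap was a ground for the choice, and FTL, at rank 4 of signal and left out of the group, holds no such gene. The count of 4 of the 6 is therefore partly set by the choice, and nothing is read from its difference from the other shares. Of the 64, 4 were called (FCGR2A, C12orf57, RPL5 and RPL13A, the last 2 with snoRNA genes in their spans), where 1.54% of the 648 were. Without the listed genes 2 of 60 were called, RPL5 and RPL13A, which are both ribosomal protein genes. Nothing is read from these counts.

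The 17 genes that hold 1 or more tRNA genes had a median mean signal of 17.0, against 11.9 over all genes. After FCGR2A and CTC1 the next were ARPC2, a subunit of the actin-branching Arp2/3 complex, with 842.7, and ATP5F1A, a subunit of ATP synthase, with 509.7 in the authors' deposited table. Without the 2 members the 15 others held 0.221% of the summed signal. Glycine tRNA genes with the same anticodon as that in FCGR2A also lie in GPD2, which holds TRG-GCC2-2, and in VAC14, which holds TRG-GCC3-1, TRG-GCC2-4 and TRG-GCC2-5. GPD2 had a mean signal of 14.3 and VAC14 of 6.73 in the authors' deposited table, against 112772 for FCGR2A, all without division by length.

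The place of the small RNA in the span differed. With a limit of 1000 bases, applied after the values were seen, FCGR2A was the 1 gene of known strand with a tRNA gene within that distance of its 3′ end. In 5 others (ELF1, LUC7L2, FMC1, GPD2 and AGBL5) a tRNA gene lies as close to the 5′ end, and their mean signals ran from 8.32 to 41.5. LUC7L2 and FMC1 hold the same tRNA gene, TRR-CCT4-1. The tRNA gene nearest an end lies 1420 bases in for CTC1, 8430 for ARPC2 and 9057 for ATP5F1A. In KCTD2 tRNA genes lie 1335, 1860 and 2542 bases from the 5′ end. KCTD2 had a mean signal of 1.71 in the authors' deposited table. The tRNA genes of CTC1 lie at like distances from its low-coordinate end. No strand was available here for CTC1, so whether that is its 5′ or its 3′ end is not known, and its likeness to KCTD2 in place is open.

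Among 20 genes with an snRNA gene in the span, WDR74 and C12orf57 were the 2 with the highest signal. The median of the 20 was 7.94, and after these 2 the highest was POLR1C with 58.5. They were also the 2 with the snRNA gene within 1000 bases of an end of the span, 0 bases from it in WDR74 and 383 in C12orf57. Most of the other 18 hold snRNA genes named only by locus number in the annotation, and CLASP1, which holds RNU4ATAC of the minor spliceosome 118453 bases from an end, had a mean signal of 7.47 in the authors' deposited table. ARMH1 holds RNU5F-1 3689 bases from an end, and LINC00869 holds RNVU1-30 29748 bases from an end. Their mean signals were 22.3 and 32.4 in the authors' deposited table. Whether a small RNA gene lies in an exon of its host could not be read from gene spans.

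**Figure D5:**
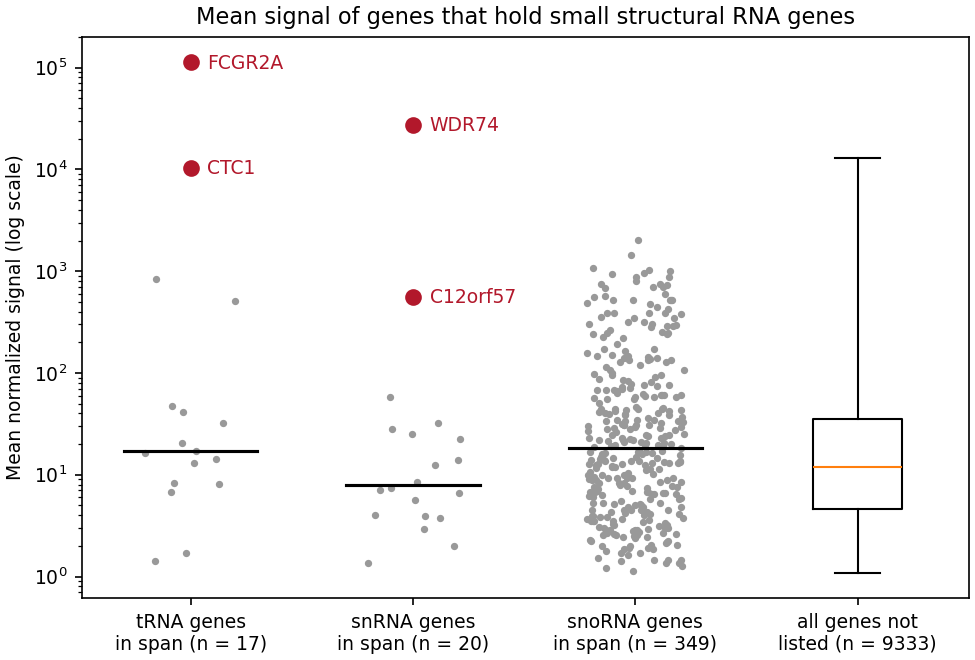
Mean normalized signal (log scale) of genes whose span holds tRNA, snRNA or snoRNA genes, 1 point per gene with a black line at the median and red points for FCGR2A, CTC1, WDR74 and C12orf57. The box at the right shows the quartiles and full range of all genes outside the group of 6. The red points lie at or near the top of the tRNA and snRNA columns, whose medians are 17.0 and 7.94.

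Lists of genes that work with each of the 6 are given by count and median, beside the median of -0.02 over all genes. A gene can be called only if it has an adjusted p, and few listed genes do. Of 15 listed Fc receptor genes 7 were measured, 5 negative and 2 positive (median log2 fold change -0.04), and FCGR2A was called of the 2 with an adjusted p. FCER1G, the signalling chain shared by several Fc receptors, had 509.3 as mean signal and -0.04 ± 0.21 as log2 fold change, and FCGR1A, the high-affinity receptor, had 110.7 and -0.54 ± 0.43, in the authors' deposited table. Neither FCGR2B nor FCGR2C, the closest relatives of FCGR2A, had a row. Of 14 genes of Fc receptor signalling 12 were measured, 6 on each side, with an adjusted p for 0 of them and a highest mean signal of 122.3 for the adaptor GRB2. PTPN6, a phosphatase gene 573 bases beyond C12orf57, had 47.3 and 0.47 ± 0.71 in the authors' deposited table.

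All 15 listed cyclins and kinases of transcription and splicing were measured, 8 negative and 7 positive, and CCNL1 was the 1 gene with an adjusted p. After CCNL1 the highest mean signals were 64.3 for CCNH and 58.6 for CCNC, with log2 fold changes of -0.02 ± 0.56 and 0.00 ± 0.74 in the authors' deposited table. Of 25 genes that act with or near WDR74 in large subunit maturation all were measured, 17 negative and 8 positive, with a median of -0.08. The 2 with an adjusted p, WDR74 and EXOSC8, were not called. EXOSC8, an exosome subunit, had the highest mean signal after WDR74, 158.9, with -0.07 ± 0.39 in the authors' deposited table. Of 13 telomere, shelterin and primase genes 12 were measured, 8 negative and 4 positive, with a median of -0.14, and CTC1 was the 1 gene with an adjusted p. After CTC1 the primase subunit PRIM1 was highest, with 34.2 and -0.07 ± 0.78 in the authors' deposited table.

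The U7 particle and its partners gave 14 measured genes of 15, 7 on each side, with a median of 0.01. The 2 with an adjusted p, SNRPG and SNRPB, were not called. SNRPG, a protein of the Sm ring, had 643.6 as mean signal and -0.64 ± 0.22 (unadjusted p = 0.004, adjusted p = 0.13), and in the authors' deposited table SLBP, which binds the histone mRNA stem-loop, had 0.24 ± 0.48. Of 17 genes that process or bind tRNA and other small RNAs 15 were measured, 7 negative and 8 positive, with a median of 0.07. The 1 with an adjusted p, RNH1, was not called. RNH1, a ribonuclease inhibitor, and SSB, which encodes the La protein, had 0.16 ± 0.38 and -0.25 ± 0.41 in the authors' deposited table.

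Of the humanin-like genes and mitochondrial ribosomal RNAs listed, 5 of 15 had a row, and all 5 were negative. After MTRNR2L12 came MTRNR2L1, at a mean signal of 317.6 with a fold change of -0.38 ± 0.26 (log2), and MTRNR2L8 with 129.4 and -0.48 ± 0.50, in the authors' deposited table. MTRNR2L6 and MTRNR2L11 had 22.1 and 8.19, with -0.02 ± 0.99 and -0.18 ± 1.55. The median of the 5 was -0.38, and MTRNR2L12 was called of the 2 with an adjusted p. These genes resemble each other and the same mitochondrial RNA, so reads may be shared among them and the 5 values are not independent.

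As a check of the cells, 14 of 17 monocytic markers had a row, among them LYZ (2942) and ELANE (538.5), against 1 of 7 lymphoid (NKG7, 15.2), 0 of 4 erythroid and 1 of 7 epithelial or fibroblast markers (KRT8, 4.33), as mean signals in the authors' deposited table. Other monocytic markers were about as low, with CSF1R at 10.9 and ITGAM at 4.55 in the authors' deposited table, so the levels of single markers overlap between the lists. FCGR2A is itself 1 of the monocytic markers.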

How the data were processed

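Per the labels' protocols, THP-1 lysate was digested with micrococcal nuclease, footprints were gel-purified and cloned as small RNA, and undigested lysate gave the input. Tools in the submitters' processing notes, without roles, are kallisto, HISAT2 2.1.0 and CASAVA, and the build is hg38. The authors deposited 1 table from riborex with the DESeq2 engine, as its name states. Per the file headers it holds the mean signal (baseMean), the log2 fold change and its standard error, the Wald statistic (a score), the p-value and the adjusted p-value. The statistic was checked to be fold change over error, and the adjusted p a Benjamini-Hochberg adjustment over the 648 genes whose mean signal reached 155.3. The depth per library is unknown here.

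Computed here (Python 3.11.15, pandas 2.3.3, scipy 1.17.1, RNAfold 2.7.2) were 95% normal intervals, shares of signal, errors relative to the 100 nearest ranks on each side, overlaps of gene spans with tRNA, snRNA, snoRNA, rRNA, Y, vault, 7SK, 7SL, RNase P and MRP RNA genes, and motif matches in RefSeq promoter windows. Names were matched to GRCh38.p14: 8920 by symbol, 254 by an older name and 13 as mitochondrial. Another 138 names did not match, and 14 were dates. No test across libraries was run. For the other processing settings, adjusted p-values were recomputed from the deposited values after centring, rescaling or another choice of genes. The adjustment and calls were tested on simulated data, and the overlap and motif searches on made cases. The centring, rescaling and relative errors were not tested in this way. The members and lists were chosen with earlier results of these data known. Named were the members, their neighbours in signal, the genes at ranks up to 10, host genes and the members of each list with the highest signal. RPL5, POLR1C, CLASP1, ARMH1, LINC00869, VAC14, PFAS, RNA5-8SP6, HIST2H3D, EEF1A1P6 and the hosts named by position were named after their values were seen. RNA polymerase III and Sm motifs were searched on both strands. Not analysed here were reads and values per library.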

Additional observations from a re-analysis of the deposited data

How the results depend on the processing

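The count of listed genes called was 3 as deposited, 3 with the adjustment over all genes, over genes of mean signal at least 100 or at least 10, and with centring on the median of all genes. It was 2 with centring on the median of the 648 genes, with or without the listed genes in that median (the latter chosen after seeing the data), or on genes of similar signal. It was 4 with statistics divided by their spread, a setting that called 308 genes in all. MTRNR2L12 lost its call under the 3 centrings, at -0.32 (adjusted p = 0.080), -0.32 (adjusted p = 0.080) and -0.27 (adjusted p = 0.22), because the centre moved towards it. CCNL1 gained one with rescaled statistics, at -0.46 (adjusted p = 1.8e-05), which takes the deposited errors to be too wide. FCGR2A and C12orf57 kept theirs under all 8 alternatives, with fold changes from -0.80 to -0.63 and from -1.17 to -1.01. For FCGR2A the genes taken as similar in signal all lie below it. No sign turned. With 10 genes on each side the relative error of CCNL1 was 3.49 and that of CTC1 11.4. It was 1.49 for FCGR2A, 1.62 for WDR74, 1.29 for C12orf57 and 0.816 for MTRNR2L12. The count of 4 spans with a small RNA gene held with tRNA and snRNA genes alone and with 1000 or 3000 bases of flank (the last chosen after seeing the data). Same-strand overlap was not run, because the gene table gives no strand. Leaving out replicates was not run. No paired analysis was possible because the table has no values per library.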

Other observations

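A few further rows of the authors' deposited table stand close to the 6 genes in kind. RNA5-8SP6, named as a pseudogene of the 5.8S ribosomal RNA, had 1091 as mean signal and 0.26 ± 1.03 as log2 fold change in the authors' deposited table, and a product of error and root signal of 34.1, at rank 5 of all genes. EEF1A1P5, a pseudogene of a translation elongation factor with the snoRNA gene SNORD141A in its span, had 2003 and -0.66 ± 0.70 in the authors' deposited table, with a product of 31.1, at rank 6. RPS29, a small-subunit ribosomal protein gene whose annotated span holds RN7SL1, the RNA of the signal recognition particle, had 1431 and -0.37 ± 0.16 (adjusted p = 0.30) in the authors' deposited table, with a product of 5.89. The product of RPS29 was near the median of 5.37 for the 51 genes of like signal outside the group of 6, and those of the first 2 rows were far above it. Wide errors were not particular to such rows. Relative to neighbours in signal the error was 5.79 for RNA5-8SP6 and 4.16 for EEF1A1P5. It was 7.63 for the histone gene HIST2H3D and 5.72 for EEF1A1P6, another pseudogene of the elongation factor.

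Host genes of snoRNAs, 349 in number, had a median mean signal of 18.4 and a median log2 fold change of -0.05, with 194 negative and 155 positive, beside -0.02 over all genes. Of the 10 host genes of any class with the highest signal, RPL13A (1436), RPS13 (1067), RPLP2 (1025), RPL4 (997.0) and RPL23 (956.9) are ribosomal protein genes with snoRNA genes in the span, and their log2 fold changes in the authors' deposited table were -0.50 ± 0.14, -0.27 ± 0.15, -0.34 ± 0.16, -0.11 ± 0.15 and -0.39 ± 0.15.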
